A study of Mus musculus with 10 samples.

Results

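Open chromatin of the mouse brain was compared between 2 sizes of laser capture. The comparison holds the 4 brain libraries of a set of 10, chosen by the start of their titles: 2 libraries of about 200 nuclei (BR10BPA) and 2 libraries of 50 nuclei (BR50SCA). The other 6 libraries came from lung and are used only where brain is set against them. All sections were fresh frozen tissue of C57BL/6J WT mice, an inbred laboratory strain carrying no engineered allele, and no drug or other treatment is named. The 50-nuclei libraries pooled 50 nuclei lifted individually, and the 200-nuclei libraries pooled 10 areas holding about 20 nuclei each, so the number of nuclei and the way of lifting them changed together and cannot be told apart. The labels name neither the brain region, the age or sex of the mice, nor how many mice were used, and they call the replicates technical, so every p-value here measures only the spread between such libraries.

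ATAC-seq uses the transposase Tn5, which cuts DNA that is not wrapped around nucleosomes and leaves sequencing adapters at the cut. Read density at a site therefore reports how accessible the chromatin was. Promoters of broadly active genes are usually open in every cell type, whereas distal enhancers open in a cell-type-dependent way, and a brain section mixes neurons, astrocytes, oligodendrocytes, microglia and vessel cells. In such a mixture, fewer nuclei of a type and less accessibility per nucleus cannot be told apart. Mitochondrial DNA carries no nucleosomes and is cut readily by Tn5.

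The deposited table held 37511 nuclear peaks and 2 mitochondrial peaks, and 37396 of the nuclear peaks held a read in at least 1 brain library. Levels are given as reads per 1000000 nuclear reads in peaks (RPM), which leaves mitochondrial reads out of the scale. The strongest brain peaks lay at gene starts, and the letters upstream of 3 of them are shown because the results turn on such promoters. They belong to Khsrp, which encodes an RNA-binding protein of splicing and mRNA decay, Dcaf6, a substrate receptor of a cullin ubiquitin ligase, and Sp1, a transcription factor that binds GC boxes. Each line is the 250 bases before the start site on the strand of the gene, from RefSeq on GRCm38.p6, the assembly that mm10 names. Capitals mark GC boxes (GGGCGG or its reverse complement CCGCCC) and CCAAT boxes (CCAAT or its reverse complement ATTGG).
Khsrp: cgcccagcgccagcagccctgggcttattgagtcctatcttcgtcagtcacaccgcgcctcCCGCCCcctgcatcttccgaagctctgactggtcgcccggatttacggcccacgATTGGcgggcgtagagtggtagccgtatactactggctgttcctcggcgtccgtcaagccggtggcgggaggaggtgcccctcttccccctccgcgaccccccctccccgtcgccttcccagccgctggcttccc
Dcaf6: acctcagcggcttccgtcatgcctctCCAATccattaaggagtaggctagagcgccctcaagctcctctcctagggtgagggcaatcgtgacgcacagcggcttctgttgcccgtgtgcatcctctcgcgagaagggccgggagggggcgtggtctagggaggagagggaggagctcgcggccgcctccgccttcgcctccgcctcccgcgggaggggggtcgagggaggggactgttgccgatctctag
Sp1: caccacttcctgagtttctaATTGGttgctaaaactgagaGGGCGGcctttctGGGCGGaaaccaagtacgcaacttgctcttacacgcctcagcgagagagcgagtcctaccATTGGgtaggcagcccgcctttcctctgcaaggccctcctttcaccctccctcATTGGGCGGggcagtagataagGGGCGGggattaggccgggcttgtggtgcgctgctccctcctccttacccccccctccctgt
The Khsrp window is chr17:57031508-57031757 on the minus strand, the Dcaf6 window chr1:165460464-165460713 on the minus strand and the Sp1 window chr15:102406066-102406315 on the plus strand. The Sp1 window held 4 GC boxes and 3 CCAAT boxes, the Khsrp window 1 of each, and the Dcaf6 window 1 CCAAT box and no GC box.

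Promoters of neuronal genes were open as well, at lower levels. Map2 encodes a microtubule-associated protein of dendrites, Syt1 the calcium sensor of synaptic vesicle release, and Rorb a nuclear receptor of cortical layer neurons. Their windows are shown with the same marking, since these peaks are among the neuronal sites described further on.
Map2: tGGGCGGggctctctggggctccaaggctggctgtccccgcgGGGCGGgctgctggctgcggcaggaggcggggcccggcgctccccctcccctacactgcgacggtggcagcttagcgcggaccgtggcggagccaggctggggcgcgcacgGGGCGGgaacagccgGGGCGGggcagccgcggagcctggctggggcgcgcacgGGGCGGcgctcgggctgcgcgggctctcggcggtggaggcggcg
Syt1: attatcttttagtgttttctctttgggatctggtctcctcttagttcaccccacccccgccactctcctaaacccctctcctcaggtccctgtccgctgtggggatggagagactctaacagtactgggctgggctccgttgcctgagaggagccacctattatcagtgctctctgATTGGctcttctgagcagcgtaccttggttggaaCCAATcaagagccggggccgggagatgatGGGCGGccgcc
Rorb: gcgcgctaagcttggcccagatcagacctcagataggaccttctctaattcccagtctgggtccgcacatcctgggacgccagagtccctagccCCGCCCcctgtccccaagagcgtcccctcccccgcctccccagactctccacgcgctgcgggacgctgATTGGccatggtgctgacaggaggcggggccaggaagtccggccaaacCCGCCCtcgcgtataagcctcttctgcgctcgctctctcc
The Map2 window is chr1:66175079-66175328 on the plus strand, the Syt1 window chr10:109010976-109011225 on the minus strand and the Rorb window chr19:19111197-19111446 on the minus strand. Map2 had 5 GC boxes and no CCAAT box in a window of 81.2% G and C, whereas Syt1 had 1 GC box and 2 CCAAT boxes in a window of 56.4%. Rorb had 2 GC boxes and 1 CCAAT box. A match describes the letters only and does not show that a factor was bound.

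Nearly all reads of the brain libraries were mitochondrial at both capture sizes. Of the reads in peaks, mitochondrial ones made up 93.4% and 95.2% in the 50-nuclei libraries (replicates 1 and 2, as in every sentence that follows) and 94.2% and 95.8% in the 200-nuclei libraries. The groups overlapped, with a mean of 94.3% ± 1.26 (SD, n = 2) against 94.99% ± 1.09 (SD, n = 2; exact permutation test, two-sided, p = 0.667). The 2 peaks on chrM covered positions 46 to 6426, with both ribosomal RNA genes (mt-Rnr1 and mt-Rnr2), ND1, ND2 and part of COX1, and positions 11001 to 16251, with ND5, ND6, CYTB and part of ND4. Per base, the first of these peaks held 0.920 and 0.902 times the reads of the second at 50 nuclei, and 0.966 and 0.935 times at 200 nuclei. Both regions were thus read at a nearly even density in every library, and the 200-nuclei libraries had the higher ratios. Per base of peak, mitochondrial density exceeded nuclear density 9852-fold to 15770-fold over the brain libraries, and 229-fold to 965-fold over the lung libraries.

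Libraries of about 4 times as many nuclei held 1.26 times the nuclear reads. Nuclear reads in peaks were 365428 and 319307 in the 50-nuclei libraries, and 398811 and 465489 in the 200-nuclei libraries. Both larger captures lay above both smaller ones. With 2 libraries against 2, the exact two-sided permutation test cannot go below p = 0.333, which is the value it gave. Divided by the nominal number of nuclei, nuclear reads were 7309 and 6386 per nucleus at 50 nuclei and 1994 and 2327 at 200 nuclei. Depth in total reads in peaks differed more, with 5519395 and 6603983 against 6904574 and 10973796. Reads depend on how deeply a library was sequenced and on any duplicates kept, so they are not a measure of the yield of a capture. None of 42 such measures per library could pass a threshold of 0.05 in this design, and adjusted over them the p-values were 0.666 or higher.

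**Figure D1:**
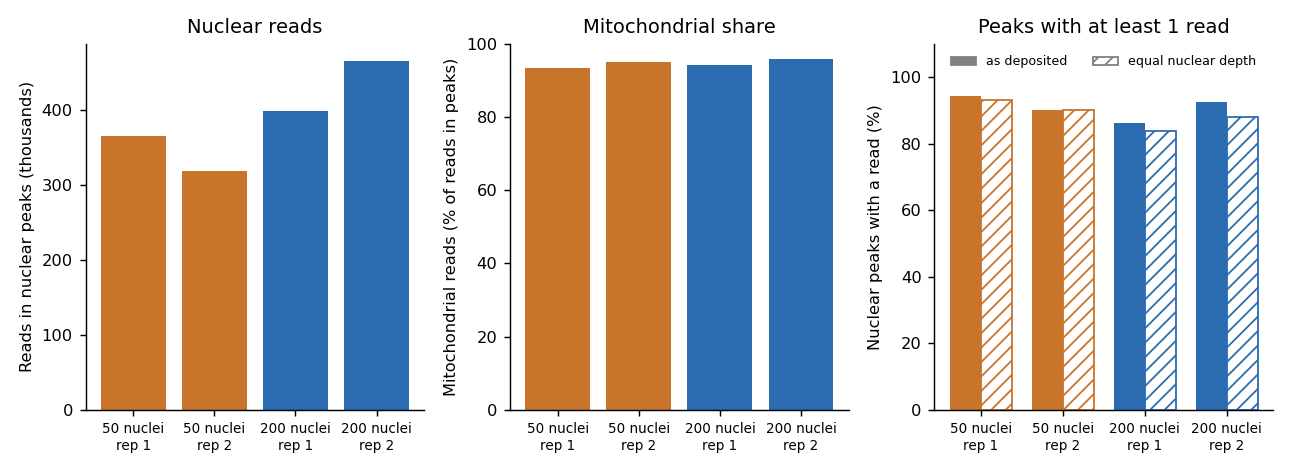
The bars give, for each brain library, the reads in nuclear peaks (left, axis in units of 1000 reads), the mitochondrial share of reads in peaks (middle, percent) and the share of the nuclear peaks with at least 1 read (right, percent), as deposited (filled) and with all libraries reduced to 319307 nuclear reads (hatched). Both 200-nuclei libraries had more nuclear reads, but at equal nuclear depth they reached 83.8% and 88.2% of the peaks against 93.1% and 90.1% at 50 nuclei.

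The larger captures reached no more of the peaks. At least 1 read fell in 94.3% and 90.1% of nuclear peaks at 50 nuclei, and in 86.2% and 92.5% at 200 nuclei. The difference of means was -2.88 percentage points, smaller than the SD of 3.02 and 4.48 percentage points within the groups. When reads were drawn at random so that every library had 319307 nuclear reads, the shares became 93.1% and 90.1% at 50 nuclei and 83.8% and 88.2% at 200 nuclei. Both 50-nuclei libraries then lay above both 200-nuclei libraries, and the difference of means was -5.61 percentage points (two-sided exact permutation p = 0.333, again the smallest that can be reached). By position, the gap at equal depth was smallest at gene ends, where 97.1% and 96.9% of peaks were reached at 50 nuclei and 93.2% and 96.2% at 200 nuclei. Away from genes it was 89.5% and 83.4% against 76.0% and 81.0%.

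Most of the peak set was shared by the 4 libraries. A total of 27853 nuclear peaks (74.3%) held a read in every brain library, and 115 peaks held none. At equal nuclear depth the shared set was 26256 peaks (70.0%). The peaks read in both 50-nuclei libraries and in neither 200-nuclei library numbered 552 (1.47%), and those with the opposite pattern 261 (0.696%). Those counts were 925 and 238 at equal depth. These peaks were weak: none held more than 15 reads in any 1 library. The median of the 552 was 3.03 RPM, against 18.5 RPM for the shared peaks.

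Accessible chromatin in brain was concentrated at gene ends. Peaks centred within 1000 bp of an end of a gene made up 36.8% of the nuclear peaks (13819) and held 64.0% of their reads. Peaks inside genes (13115) held 22.1%, and the other 10577 peaks 14.0%. Gene-end peaks had a median level of 28.1 RPM and a median width of 243 bp, against 10.1 RPM and 139 bp inside genes and 8.75 RPM and 137 bp elsewhere. Counting instead the 8961 peaks that overlap a RefSeq start-site window (250 bases before to 50 after a start), 23.9% of peaks held 52.7% of reads, at a median of 42.5 RPM. The gene-end share of reads was 61.0% and 64.9% at 50 nuclei and 64.7% and 65.4% at 200 nuclei. These groups overlapped (exact permutation test, two-sided, p = 0.667), and 50-nuclei replicate 1 was the low value. Lung libraries lay at 56.2% to 59.4%, below all 4 brain libraries.

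The strongest peak of brain lay at the start of Khsrp, chr17:57031487-57032350 (mm10, as are all peak positions here). It measured 495 and 536 RPM at 50 nuclei and 544 and 587 RPM at 200 nuclei. Both 200-nuclei values were higher, yet the difference of 0.16 on the log2 scale was within its standard error (SE) of 0.20 (edgeR quasi-likelihood test, adjusted p = 1). Lung read the same peak at 411 to 750 RPM. Dcaf6, at chr1:165460309-165461400, was next with 490 and 492 RPM against 494 and 567 RPM. All 4 of its values exceeded the highest lung value of 455 RPM. Sp1, at chr15:102405291-102406421, measured 457 and 583 RPM against 474 and 503 RPM, and its groups overlapped.

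The other 9 of the 12 strongest peaks with a gene also lay near gene starts. Dnpep, an aspartyl aminopeptidase (chr1:75317016-75318094), measured 400 and 614 RPM at 50 nuclei, the widest gap between replicates among the 12, and 459 and 503 RPM at 200 nuclei. A peak at chr19:6979609-6980642 was assigned to LOC114841036 but overlaps the start window of Fkbp2, a prolyl isomerase of the endoplasmic reticulum. It had 5 genes in reach and measured 419 and 526 RPM against 497 and 475 RPM. Cic, a transcriptional repressor, measured 402 and 511 RPM against 481 and 468 RPM. Rap2a, a small GTPase, measured 383 and 479 RPM against 466 and 524 RPM. Srgap2, a GTPase-activating protein of neuronal migration and spine growth, measured 391 and 542 RPM against 434 and 417 RPM. The last 4 were Ddx54, an RNA helicase, Slc25a42, a mitochondrial coenzyme A carrier, Ap2a1, a subunit of the clathrin adaptor, and Leprot, a membrane protein of receptor trafficking, with means over the 4 libraries of 440, 433, 429 and 420 RPM. Of the 12, Khsrp and Dcaf6 were higher in both 200-nuclei libraries, Ddx54 was lower in both (484 and 448 RPM against 414 and 415 RPM), and 9 overlapped. Over all tested peaks, 15.4% were higher without overlap and 17% lower. The 95% confidence intervals of the 12 log2 differences ran from -0.55 to 0.64, so each of them excluded a 2-fold change between the capture sizes.

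**Figure D2:**
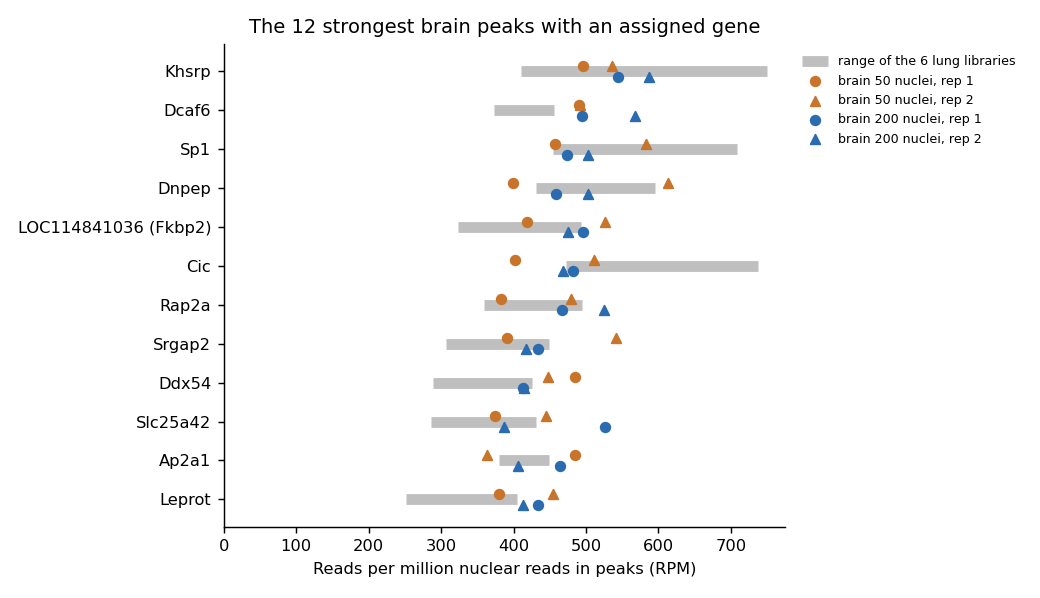
Points give the level (RPM, linear axis from 0) of the 12 strongest brain peaks with an assigned gene in each brain library, orange for 50 nuclei and blue for 200 nuclei, and grey bars the range over the 6 lung libraries. The points of the capture sizes lie among each other for 9 of the 12 genes, and every lung range except that of Dcaf6 holds at least 1 brain value.

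Strong peaks away from annotated gene ends were few, and most lay at other starts of the same genes. The highest, inside Kat6b (a histone acetyltransferase; chr14:21500153-21500968), measured 348 and 373 RPM at 50 nuclei and 351 and 468 RPM at 200 nuclei, and its centre was 775 bp from a RefSeq start. The peaks in Add3 (an adducin of the membrane skeleton), Sp2 (a relative of Sp1), Trim45 (a ubiquitin ligase) and Hdac4 (a class IIa histone deacetylase) lay 233, 25, 252 and 297 bp from a start. The Sp2 peak, chr11:96977281-96978145, differed most among them: it measured 255 and 276 RPM at 50 nuclei and 361 and 374 RPM at 200 nuclei. Its log2 difference was 0.50 (SE 0.23), with an unadjusted p of 0.030 and an adjusted p of 1 (edgeR quasi-likelihood test).

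Promoter letters differed with the level of the peak. RefSeq start windows (21263 of 300 bases, over 17492 genes) were searched on both strands, and 9887 of them (46.5%) overlapped a peak. The GC box was found in 46.2% of all windows, in 25.4% of windows without a peak, in 63.8% and 76.5% of windows whose peak lay below and above 49.0 RPM, and in 82.8% of the 1049 windows at the 1000 strongest peaks. The CCAAT box was found in 38.2% of all windows and did not follow the same course. Windows without a peak held it more often (36.5%) than windows with a weaker peak (32.0%), and the strongest held it most often (60.7%). The ETS motif CCGGAAG was found in 11.6% of all windows, in 3.47% without a peak, in 23.2% with a peak above 49.0 RPM and in 19.4% at the 1000 strongest. The cAMP response element TGACGTCA was found in 2.23% of all windows, and in 0.844% and 4.19% of the same sets.

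Other motifs ran the opposite way. The TATA box (TATAAA) was found in 12.6% of all windows, in 18.9% of those without a peak and in 3.72% of those at the 1000 strongest peaks. The AP-1 motif TGACTCA was found in 4.66% of all windows, and in 6.08% and 2.10% of those sets. The median ratio of observed to expected CpG was 0.26 without a peak and 0.83 at the strongest peaks. A GC box and a CCAAT box can share letters, as they do in the Sp1 window, and the sets also differed in base composition, with a median of 50.0% G and C without a peak and 64.7% at the strongest, whose part in the shares was not tested. These shares describe the windows and carry no test.

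**Figure D3:**
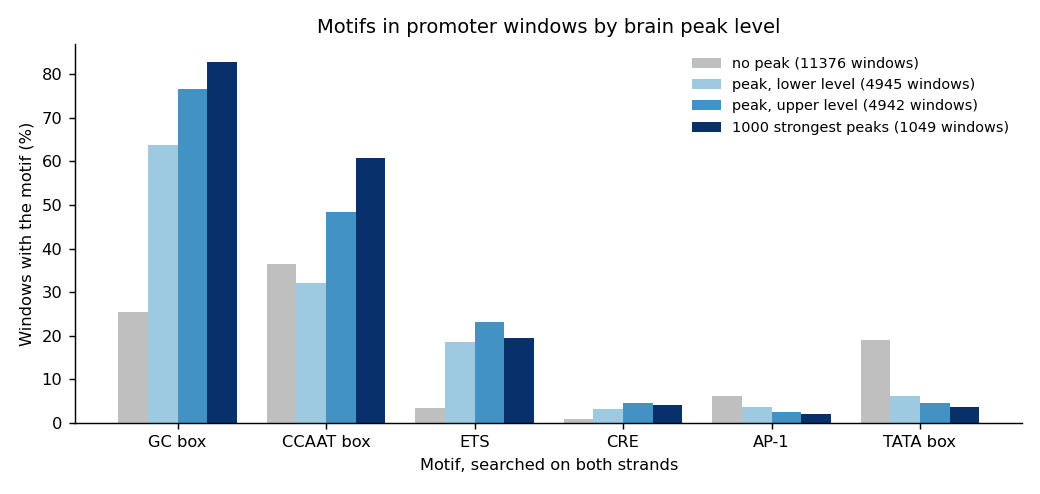
Bars give the percentage of RefSeq start windows that hold each motif on either strand, for windows with no peak, with a peak below or above 49.0 RPM over the 4 brain libraries, and at the 1000 strongest peaks, a subset of the upper level. GC boxes are in 25.4% of windows without a peak and 82.8% at the strongest peaks, and TATA boxes in 18.9% and 3.72%.

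No peak was called different between the capture sizes. Of 29019 nuclear peaks with at least 10 reads over the 4 libraries, 0 were higher (0%) and 0 lower (0%) at 200 nuclei at an adjusted p of 0.05 (edgeR quasi-likelihood test), and the smallest adjusted p was 1 after rounding. DESeq2 also called 0. An unadjusted p under 0.05 was given to 1157 peaks (3.99%), 565 higher and 592 lower, and DESeq2 gave it to 298. Both 200-nuclei libraries lay above both 50-nuclei libraries at 4481 peaks (15.4%) and below both at 4944 (17%). At equal nuclear depth these were 3556 (12.3%) and 4073 (14%).

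Precision depended on the reads behind a peak. Among 1098 peaks with 200 reads or more over the 4 libraries, the 95% interval of the log2 difference reached a median of 0.55 to either side, and 87.1% of the intervals lay within 2-fold. Among 2904 peaks with 100 to 200 reads, 56.2% of intervals did. Among 9839 peaks with 10 to 20 reads it was 0.122%, so a 2-fold difference was not detectable there. Of the 100 strongest peaks, 97 had intervals within 2-fold, and their log2 differences ran from -0.39 to 0.58. Leaving out 200-nuclei replicate 1 gave the only call in any setting, 1 peak on chr18:74921684-74921910 with no gene in reach. It held 8 and 25 reads at 50 nuclei and 18 and 0 at 200 nuclei, and its adjusted p of 0.0451 (edgeR) without the library with 18 reads stood against 1 with it.

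Strong peaks leaned slightly to the larger captures. Among the 1000 strongest, 696 had a positive log2 difference with a median of 0.12. Without overlap 237 were higher and 81 lower, beside 15.4% and 17% of all tested peaks. Those shares were 23.5% and 11.1% among all peaks with 100 to 200 reads, and 25.1% and 7.65% with 200 or more. Over deciles of the tested peaks by level, the median ran from -0.28 in the second weakest decile to 0.12 in the strongest. The strongest decile held 35.5% and 39.3% of nuclear reads at 50 nuclei and 39.5% and 40.1% at 200 nuclei. In these shares 50-nuclei replicate 1 stood apart, with the lowest value, while replicate 2 lay close to the 200-nuclei libraries. Without replicate 1 the median of the 1000 strongest peaks relative to all tested peaks was -0.01, against 0.12 with it, so the lean rests on that library.

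**Figure D4:**
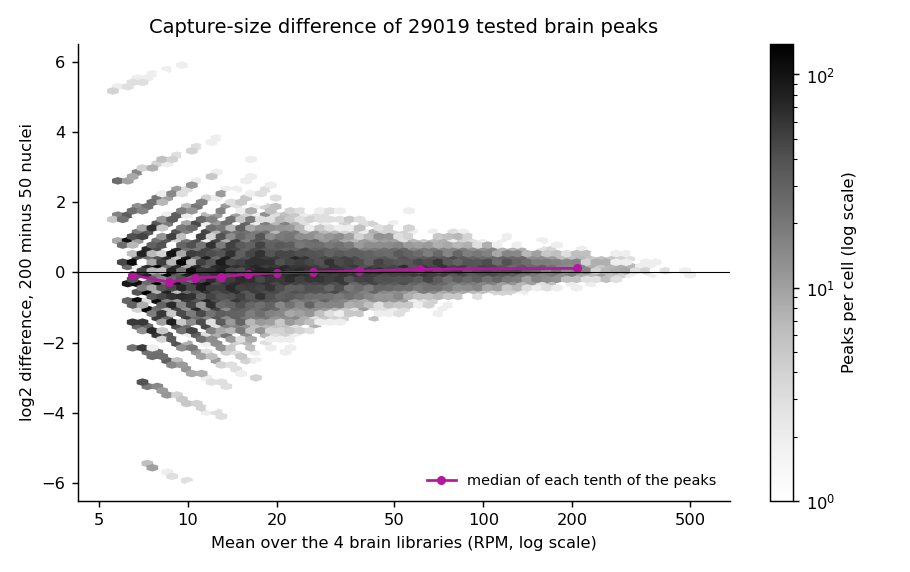
Each cell of the plot counts tested brain peaks by mean level (RPM, log axis) and by the log2 difference of 200 minus 50 nuclei, and the line joins the medians of deciles of the peaks, each drawn at the geometric mean of its limits. The spread narrows with level and the median moves from -0.28 in the second decile to 0.12 in the last.

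Capture size did not order the libraries by likeness. Over the 37511 nuclear peaks, Pearson's r of log2(RPM + 1) was 0.69 between the 50-nuclei replicates, 0.72 between the 200-nuclei replicates and 0.67 to 0.73 across sizes. Brain and lung libraries correlated at 0.40 to 0.56. At equal nuclear depth r was 0.68 within either size and 0.68 on average across sizes. It was 0.77, 0.76 and 0.77 (50-nuclei pair, 200-nuclei pair, mean across sizes) at gene ends, 0.54, 0.54 and 0.54 inside genes and 0.49, 0.50 and 0.50 elsewhere. These correlations are across peaks, which share a library and its depth and are not independent replicates. Of the 1000 strongest peaks by the mean of each size, 813 were shared (81.3% of each list), and 723 and 718 were shared between the replicates of 50 and of 200 nuclei. Replicates of both sizes differed by more than sampling noise (chi-square per degree of freedom 1.69 and 2.38), and the biological coefficient of variation was 0.23 for the 50-nuclei pair and 0.31 for the 200-nuclei pair.

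The peaks nearest to a call, none of which passed the test, were at modest levels and of mixed function. Haus6, a subunit of the augmin complex that branches microtubules (chr4:86611988-86612316), measured 24.6 and 25.1 RPM at 50 nuclei and 70.2 and 98.8 RPM at 200 nuclei. Its log2 difference was 1.79 (SE 0.48; edgeR adjusted p = 1), and all 4 values lay inside the lung range of 21.9 to 125 RPM. A peak in Vwa1, which encodes an extracellular matrix protein, measured 27.4 and 21.9 RPM against 92.8 and 75.2 RPM. A peak in Lasp1, an actin-binding protein, measured 5.47 and 9.40 RPM against 42.6 and 53.7 RPM. Cntn4, an adhesion molecule of axons, had a peak 169819 bp inside the gene with 13.7 and 3.13 RPM against 40.1 and 55.9 RPM, and lung read it at 0 to 2.93 RPM. A peak at H3c7 measured 27.4 and 31.3 RPM against 118 and 66.6 RPM, but histone genes have near-identical copies and its reads are uncertain. Igf1r, the receptor of insulin-like growth factor, held 0 and 0 reads in an internal peak at 50 nuclei and 11 and 6 at 200 nuclei.

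In the opposite direction, a peak inside Morn1 (chr4:155122606-155122884) measured 62.9 and 59.5 RPM at 50 nuclei and 7.52 and 15.0 RPM at 200 nuclei, a log2 difference of -2.35 (SE 0.62; edgeR adjusted p = 1). Ecm1, an extracellular matrix protein, measured 43.8 and 40.7 RPM against 10.0 and 2.15 RPM at its start. Zfp606, a zinc-finger gene, measured 35.6 and 31.3 RPM against 5.02 and 2.15 RPM, also at its start. Peaks inside Atxn1, Nf2 and Sned1 held 0 reads in both 200-nuclei libraries, against 3 and 11, 10 and 4, and 12 and 2 reads at 50 nuclei. These 12 peaks were named for having the lowest p in each direction, so their separation is a description.

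The label of brain was checked against neuronal and glial genes, and all lists of the 2 kinds were read in all 4 libraries. Peaks at 13 of 16 general neuron genes summed to 493 and 520 RPM at 50 nuclei and 547 and 408 RPM at 200 nuclei, against 29.2 to 194 RPM in lung. Synapse genes (20 of 23 with a peak) summed to 1245 and 1159 RPM against 1181 and 1244 RPM, and to 562 to 737 RPM in lung. Astrocyte genes summed to 443 and 454 RPM against 484 and 518 RPM, above the lung range of 222 to 390 RPM. Excitatory neuron genes reached 389 and 273 RPM against 246 and 243 RPM, above 93.9 to 208 RPM in lung. For these lists every brain value exceeded every lung value, as it did for the oligodendrocyte precursor list with 90.8 to 128 RPM against 31.0 to 58.2 RPM. The oligodendrocyte list, at 405 and 454 RPM against 316 and 479 RPM, overlapped lung at 141 to 354 RPM. The inhibitory neuron list, at 32.2 to 81.4 RPM, overlapped the lung range of 0 to 52.9 RPM. The defining genes Gad1, Gad2 and Slc32a1 had no peak, nor had Slc17a6, Tbr1 and Neurod2 among the excitatory genes.

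Neuronal members varied in both directions with capture size. Map2 measured 46.5 and 53.2 RPM at 50 nuclei and 90.3 and 70.9 RPM at 200 nuclei, higher in both larger captures (log2 difference 0.71, SE 0.41; edgeR adjusted p = 1). Lung read it at 2.84 to 55.8 RPM, a range that holds both 50-nuclei values. Syt1 ran the other way, with 73.9 and 65.8 RPM against 50.2 and 38.7 RPM (log2 difference -0.63, SE 0.44; edgeR adjusted p = 1). Over the general neuron list, 4 of 20 tested peaks were higher without overlap, 6 lower and 0 called, beside 15.4% and 17% of all tested peaks. The median log2 difference of the list was 0.07, against -0.01 over all tested peaks. The start of Camk2a, a kinase of excitatory synapses, measured 57.5 and 78.3 RPM against 45.1 and 17.2 RPM, and Rorb 43.8 and 40.7 RPM against 30.1 and 19.3 RPM. Both were lower in both larger captures, and lung read Camk2a at 0 to 2.93 RPM. Adarb2 and Dlx6, genes of inhibitory neurons, measured 12.9 to 30.1 RPM and 4.30 to 34.5 RPM over the 4 libraries, with overlapping groups.

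Synaptic peaks were among the stronger neuronal sites. Homer1, a postsynaptic scaffold, measured 115 and 132 RPM at 50 nuclei and 148 and 138 RPM at 200 nuclei. It was higher in both larger captures, and all 4 values lay above the lung range of 49.3 to 92.0 RPM. Of 34 tested synapse peaks, 4 were higher without overlap and 8 lower, beside 15.4% and 17% of all tested peaks, and the median log2 difference was 0.03.

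Glial peaks were read at levels from near those of the strong synaptic peaks down to a few reads. The peak inside Kcnj10, the potassium channel of astrocytes (chr1:172349929-172350283), measured 90.3 and 110 RPM at 50 nuclei and 72.7 and 110 RPM at 200 nuclei, against 0 to 2.22 RPM in lung. Glul, the glutamine synthetase of astrocytes, measured 123 and 116 RPM against 123 and 120 RPM, inside the lung range. Of 12 tested astrocyte peaks, 4 were higher at 200 nuclei without overlap and 0 lower, beside 15.4% and 17% of all tested peaks. The median log2 difference was 0.25, and 0.10 over gene-end peaks alone. Olig1, a factor of the oligodendrocyte lineage, measured 30.1 and 62.6 RPM against 62.7 and 62.3 RPM, and lung read it at 0 to 5.54 RPM. The strongest peak of Mbp, the myelin basic protein gene, lay inside the gene at 49.3 and 40.7 RPM against 55.2 and 45.1 RPM and within the lung range, so it did not mark the tissue. Cspg4, a marker of oligodendrocyte precursors and pericytes, measured 38.3 and 15.7 RPM against 45.1 and 38.7 RPM at its stronger peak. A second Cspg4 peak measured 24.6 and 12.5 RPM against 17.6 and 17.2 RPM.

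Microglial genes had 17 peaks at 8 of 14 genes, and C1qa, C1qb, C1qc, Cx3cr1 and Trem2 had none. The list summed to 320 and 273 RPM against 301 and 241 RPM, overlapping lung at 249 to 414 RPM. Sall1, a factor that keeps microglial identity, measured 35.6 and 53.2 RPM against 45.1 and 53.7 RPM, above lung at 0 to 2.93 RPM. Irf8, shared by microglia and other myeloid cells, measured 35.6 and 25.1 RPM against 40.1 and 21.5 RPM. Leukocyte peaks at Ptprc were weak, at 13.7 and 25.1 RPM against 5.02 and 12.9 RPM for the stronger and 11.0 and 3.13 RPM against 15.0 and 6.45 RPM for the other.

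Vessel genes summed to less in brain than in lung, and to less in the larger captures than in the smaller ones, with no peak called. Their 56 peaks summed to 670 and 492 RPM at 50 nuclei and 431 and 425 RPM at 200 nuclei, against 1221 to 1837 RPM in lung. Of 36 tested peaks, 9 were lower without overlap, 2 higher and 0 called, with a median log2 difference of -0.26, beside 17% lower and 15.4% higher over all tested peaks. Vessel peaks were weak, at a mean of 9.01 RPM over brain, and among all peaks with 10 to 20 reads 21.1% were lower and 11.4% higher, so weak peaks as a class leaned the same way. The strongest, Sox18 and Cldn5, overlapped between sizes, at 38.3 and 18.8 RPM against 10.0 and 21.5 RPM for Sox18, an endothelial factor, and 13.7 and 28.2 RPM against 12.5 and 21.5 RPM for Cldn5, a tight-junction protein of the blood-brain barrier. Chosen after their values were seen, Foxf2 (27.4 and 28.2 RPM against 0 and 8.59 RPM) and Cdh5 (24.6 and 21.9 RPM against 5.02 and 6.45 RPM) had the lowest unadjusted p of the list. The share of vessel nuclei in a capture was not tested.

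The ependymal and choroid plexus list showed a similar split at a weak peak. Aqp1, a water channel of the choroid plexus, measured 27.4 and 18.8 RPM at 50 nuclei and 2.51 and 2.15 RPM at 200 nuclei, 10 and 6 reads against 1 and 1. Its log2 difference was -3.13 (SE 1.09; edgeR adjusted p = 1). Foxj1, the regulator of motile cilia, overlapped with 38.3 and 53.2 RPM against 25.1 and 55.9 RPM, above lung at 13.9 to 27.0 RPM except in 200-nuclei replicate 1. The choroid genes Ttr, Kl and Otx2 had no peak.

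**Figure D5:**
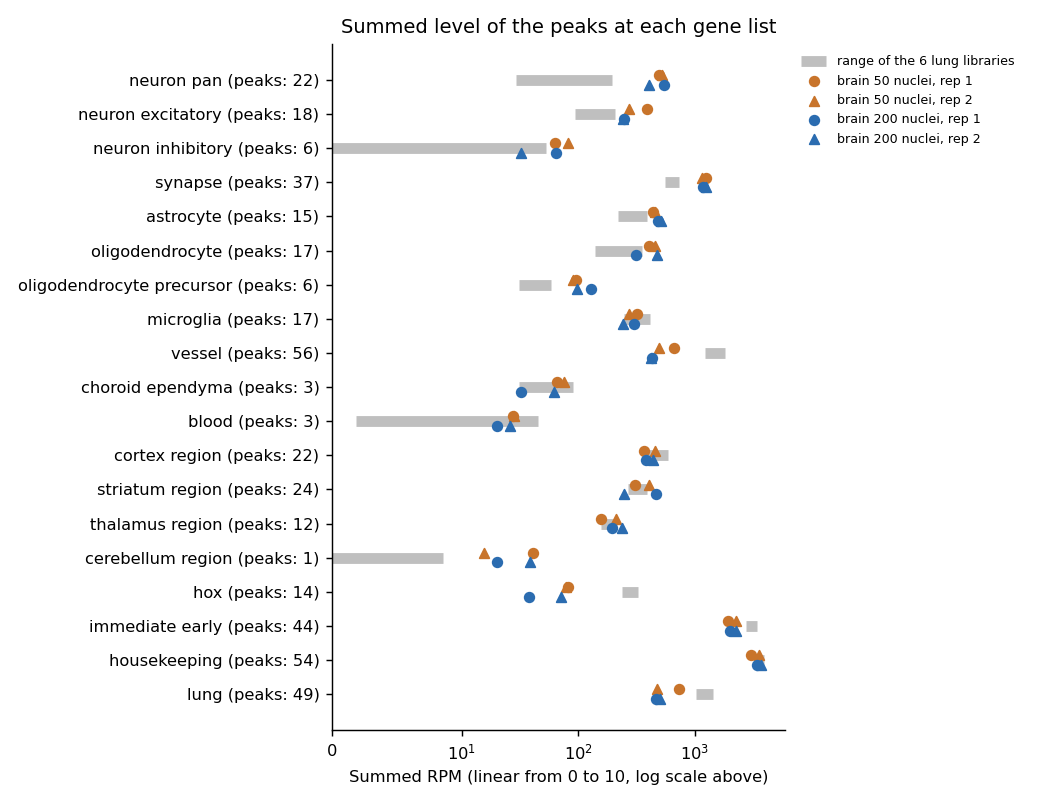
Points give the RPM summed over all peaks at each gene list in each brain library (axis linear from 0 to 10 and logarithmic above), and grey bars the range over the 6 lung libraries. All brain points lie above the lung range for general and excitatory neuron, synapse, astrocyte, oligodendrocyte precursor and cerebellum lists, and below it for vessel, Hox, immediate early and lung lists.

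Genes of several brain regions were read, and the labels name no region. Zbtb18, a repressor of cortical development, measured 107 and 147 RPM at 50 nuclei and 156 and 157 RPM at 200 nuclei, within lung at 139 to 267 RPM except for 50-nuclei replicate 1. Ppp1r1b, a signalling protein of striatal neurons, measured 49.3 and 59.5 RPM against 52.7 and 17.2 RPM, and Cbln1, made by cerebellar granule and some other neurons, 41.1 and 15.7 RPM against 20.1 and 38.7 RPM. Foxp1, a striatal and cortical factor, measured 13.7 and 68.9 RPM against 57.7 and 62.3 RPM, Tcf7l2, a thalamic factor, 46.5 and 53.2 RPM against 42.6 and 58.0 RPM, and Rora, a nuclear receptor of thalamic and Purkinje neurons, 30.1 and 21.9 RPM against 35.1 and 60.2 RPM. In lung, Ppp1r1b measured 0 to 7.48 RPM and Cbln1 0 to 8.53 RPM, below all brain values. All brain values of Tcf7l2 and Rora lay within lung, at 23.5 to 62.1 and 14.2 to 102 RPM. Foxp1 lay above lung at 5.87 to 29.3 RPM except in 50-nuclei replicate 1. The cortex, striatum and thalamus list sums overlapped lung, and Cbln1 alone of 8 cerebellum genes had a peak. Rora and Zbtb18 were higher in both larger captures, as were 15.4% of all tested peaks. Of the 4 regional lists, 0 peaks were called.

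Hox genes, which are silent in forebrain, had 14 peaks that summed to 82.1 and 78.3 RPM against 37.6 and 70.9 RPM, below lung at 239 to 327 RPM. Only 4 of these peaks had enough reads to be tested. Hoxa9 measured 5.47 and 15.7 RPM against 17.6 and 6.45 RPM, and Hoxc8 19.2 and 18.8 RPM against 0 and 4.30 RPM. Lung genes had some open starts in brain. Abca3, a lipid transporter of alveolar type II cells, measured 90.3 and 103 RPM against 108 and 120 RPM, and Rtkn2 measured 101 and 65.8 RPM against 35.1 and 51.6 RPM. The sum of the list was 739 RPM in 50-nuclei replicate 1 and 469 to 505 RPM in the other brain libraries, below the lung range of 1026 to 1444 RPM.

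Immediate early genes, which respond to neuronal activity and to stress, were open in all 4 libraries. Their 44 peaks summed to 1951 and 2249 RPM at 50 nuclei and 2018 and 2271 RPM at 200 nuclei, below lung at 2765 to 3437 RPM. Jun measured 172 and 279 RPM against 211 and 243 RPM, and Egr1 222 and 219 RPM against 231 and 221 RPM. Of 41 tested peaks 5 were higher without overlap and 7 lower, near the 15.4% and 17% of all tested peaks. Chosen after its value was seen, the strongest separation was at a peak of Nr4a1, an orphan nuclear receptor, with 112 and 103 RPM against 42.6 and 51.6 RPM (edgeR adjusted p = 1). Housekeeping genes summed to 3040 and 3583 RPM against 3403 and 3747 RPM. Of their 51 tested peaks, 10 were higher without overlap and 1 lower, beside 15.4% and 17% of all tested peaks, with a median log2 difference of 0.21. These were strong peaks, at a mean of 63.8 RPM, and among all peaks with 100 to 200 reads 23.5% were higher and 11.1% lower. Hspa8, a constitutive chaperone, measured 290 and 329 RPM against 321 and 331 RPM, and Eif4a1, a translation initiation helicase, 175 and 226 RPM against 238 and 198 RPM.

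The size difference was also set against that of lung. Over 37464 peaks tested in all 10 libraries, 0 peaks (0%) had a size difference that differed between the tissues (edgeR quasi-likelihood test of the interaction, smallest adjusted p of 1), and 1639 had an unadjusted p under 0.05. Of those 1639, 122 had the higher size difference in brain and 1517 in lung. None of the 1639 passed adjustment, so this split is a description. The median over all tested peaks, brain minus lung, was -0.55 on the log2 scale. It kept its sign but moved with the processing, from -0.27 with edgeR's own filter for low counts to -1.02 without lung 50-nuclei replicate 1. The lung 50-nuclei libraries ranged from 56.1% to 90.9% in the share of peaks with a read. The biological coefficient of variation was 0.60 in that fit, against 0.27 in the fit of the 4 brain libraries.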

How the data were processed

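ATAC-seq read counts of 4 mouse brain libraries were analysed, with 6 lung libraries for reference. The authors deposited whole-number counts per peak, not normalized. Per the submitters' processing notes the build was mm10 and the tools included Trimmomatic 0.36, Bowtie2 2.4.5, Picard, SAMtools 1.14 and MACS2 2.2.7.1. The merging of peaks, the counting, any removal of duplicates and any Tn5 shift are not given in the sources. If duplicates remained, they would add to the spread between libraries.

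Peaks were placed on RefSeq genes of GRCm38.p6, with a gene in reach within 5000 bp. Exons and UTRs were not used here. The start-window table is incomplete. Nuclear peaks with at least 10 reads over the 4 libraries were tested with edgeR 4.0.16 (quasi-likelihood F test, TMM on nuclear reads, Benjamini-Hochberg) in R 4.3.3, on the 4 brain libraries alone. The method was tested on simulated data. DESeq2 1.42.0 was an alternative, with other filters, scalings, a replicate block and libraries left out. Equal depth used 319307 nuclear reads drawn without replacement (seed 20). Library measures used exact two-sided permutation tests, and correlations used a pseudocount of 1 RPM. Intervals cover the spread between libraries as the model fits it.

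Named peaks were the 12 strongest with a gene, the 5 strongest away from gene ends, the 6 with the lowest p in each direction and the 2 strongest of each of 19 gene lists (255 genes, all matched). Some of these peaks are not reported here. The members, lists and rules were chosen with earlier results of these data known.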

Additional observations from a re-analysis of the deposited data

Results flagged for a closer look

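For 3 library measures, the difference in capture-size effect between brain and lung had a small unadjusted exact p, and none passed after adjustment. The test shuffled size labels within each tissue, so a size effect in lung alone can give a small p. It therefore cannot decide whether the effects differ between the tissues. The mitochondrial share changed by 0.72 percentage points from 50 to 200 nuclei in brain and by -19.0 in lung, a difference of 19.7 percentage points (exact permutation test of size within tissue, two-sided, p = 0.0333 over 120 arrangements). The brain shares, at 93.4% to 95.8%, had little room to move upward. The share of nuclear peaks with a read changed by -2.88 percentage points in brain and by 27.6 in lung, a difference of -30.5 (exact permutation p = 0.0333). At equal nuclear depth these were -5.61 and 21.0 percentage points, a difference of -26.6 (exact permutation p = 0.0167, the smallest possible). Adjusted over the 6 measures tested in this way, each of the 3 had an exact permutation p of 0.0666 and missed the threshold. At equal depth both 200-nuclei brain libraries lay below both 50-nuclei ones, and all 3 lung libraries of 200 nuclei lay above all 3 of 50 nuclei. The lung 50-nuclei libraries ranged from 54.6% to 85.1% in that share, and the part of that spread in the difference was not tested. Groups of 2 and 3 libraries are too small for a check of outlying samples.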

How the results depend on the processing

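The count of peaks called between capture sizes was 0 in all 9 other settings that kept every library. The fit with the replicate number as a block is included (0 called, 938 with an unadjusted p under 0.05 in edgeR). Same-numbered libraries did not deviate together over all nuclear peaks (r = -0.03). At a median of 4 to 6 reads per peak in a brain library, that value cannot decide whether the numbers pair libraries. The call made with a library left out is described above. No call on the dependence of the size difference on tissue was made in any setting, the replicate block included (0). The smallest adjusted p over these settings was 0.0677 (edgeR), without lung 50-nuclei replicate 3. Counting only peaks with at least 5 reads turned the difference in the share of peaks reached from -2.88 to 3.65 percentage points as deposited, both within the spread. Without each library in turn that share differed by -6.05 to 0.30 percentage points, at equal nuclear depth by -7.81 to -3.41, nuclear reads by 56440 to 123100, the mitochondrial share by -0.17 to 1.61 percentage points and the gene-end share of reads by 0.14 to 4.05. The median of the 1000 strongest peaks relative to all tested peaks ranged from -0.013 (without 50-nuclei replicate 1) to 0.175, and this measure, the start-window shares and the equal-depth correlations by peak class were added after seeing the data. Of the list medians, that of oligodendrocyte precursors changed sign with gene-end peaks alone (0.08 to -0.16, a single peak). Of the alternatives, 74 for the comparisons and 242 for single peaks and lists were counted as unmoved, and 3 and 1 as moved. Counts of calls had to stay the same. Library measures, correlations, mean levels and list sums had to move by less than a spread between libraries. The median of the 1000 strongest peaks had to keep its sign and move by less than its own size. Differences at single peaks and list medians had only to keep their sign. Signs did turn among values with no call, as the ranges above show. The main fits called 0 peaks, so there was no called value that could change sign. Depth limits peaks under 100 reads, where few intervals lay within 2-fold (9.03% of 4430 peaks with 50 to 100 reads).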

Other observations

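Peaks on the Y chromosome differed between the tissues. The 2 such peaks, at Eif2s3y (a translation factor subunit) and Uty (a histone demethylase), together held 12 and 17 reads in the 50-nuclei brain libraries and 21 and 12 in the 200-nuclei ones, and 0 reads in all 6 lung libraries. X-linked peaks held 1.39% to 1.63% of nuclear reads in brain and 1.31% to 1.70% in lung. The labels name no sex for either tissue.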
